A study of Mus musculus with 4 samples.

Results

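The trace amine-associated receptors (TAARs) were followed in single-cell transcriptomes of the main olfactory epithelium, where the olfactory sensory neurons (OSNs) of the nose reside. The 10 receptor genes were chosen by name: Taar2, Taar3, Taar4, Taar5, Taar6, Taar7a, Taar7b, Taar7d, Taar8c and Taar9. They are 10 of 55511 genes in the count table, which holds 16 genes of the Taar family in all. The other 6 (Taar1, Taar7c-ps, Taar7e, Taar7f, Taar8a and Taar8b) are given beside them. The series comprised 4 male C57BL/6 mice (C57BL/6J in the study's methods) aged 8 weeks, with 1 library per mouse and no treatment, genetic alteration or second group. Live nucleated cells were sorted with Hoechst 33342 and DRAQ7 and their transcripts were counted from the 3′ end, with a unique molecular identifier (UMI) marking each captured molecule. The authors' cell table gave 10519 mature OSNs, of which 9791 carried a receptor identity. Of these, 44 had a Taar gene, 9741 an odorant receptor (OR) gene and 6 the guanylate cyclase gene Gucy1b2.

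TAARs are G protein-coupled receptors of a family separate from the ORs, and most of them detect volatile amines such as those found in urine and in decaying tissue. A mature OSN typically expresses a single receptor gene, taken either from the OR genes or from the Taar genes. Neurons with Taar genes send their axons to a group of glomeruli in the dorsal olfactory bulb, and Taar1 is known from the brain rather than from the nose.

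The Taar genes lie side by side on chromosome 10 of the GRCm38 build, from Taar1 at chr10:23920356-23921469 to Taar9 at chr10:24108488-24109534 in GENCODE M21. Taar2 has 2 exons in that annotation and every other Taar gene has 1. The models of the 15 genes other than the pseudogene Taar7c-ps hold the coding sequence, and 0 bases follow the stop codon in each of them except Taar1, which has 65. In 3′ counting most reads come from the end of a transcript. The authors counted with an annotation in which the 3′ ends of olfactory receptor genes had been redrawn, and whether this covered the Taar genes is not given in the sources used here. Fewer transcripts and fewer countable reads per transcript therefore cannot be told apart for these genes.

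The family contains near-identical copies, and the ends of their coding sequences are shown because a read that falls there must tell one copy from the next. Where the reads fell was not examined. Pairwise identity of the transcript models was 91.7% to 95.4% among the 5 Taar7 genes and 96.6% to 98.1% among the 3 Taar8 genes, against 51.3% to 68.4% among Taar2, Taar3, Taar4, Taar5, Taar6 and Taar9. The last 60 coding bases of each copy, stop codon included, read 5′ to 3′ on the coding strand as follows. Capitals mark bases that differ from Taar7d in the Taar7 genes and from Taar8b in the Taar8 genes. The stretches lie at chr10:23992405-23992464 (Taar7a, minus strand), chr10:24000956-24001015 (Taar7b, plus), chr10:24028239-24028298 (Taar7d, plus), chr10:24038631-24038690 (Taar7e, plus), chr10:24050527-24050586 (Taar7f, plus), chr10:24077475-24077534 (Taar8a, plus), chr10:24091260-24091319 (Taar8b, minus) and chr10:24100878-24100937 (Taar8c, minus).

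Taar7a: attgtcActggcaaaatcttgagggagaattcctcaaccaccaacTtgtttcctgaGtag
Taar7b: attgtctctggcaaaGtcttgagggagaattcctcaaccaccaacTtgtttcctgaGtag
Taar7d: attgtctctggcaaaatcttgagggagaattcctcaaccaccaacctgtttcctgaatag
Taar7e: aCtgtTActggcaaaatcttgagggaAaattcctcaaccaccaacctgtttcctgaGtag
Taar7f: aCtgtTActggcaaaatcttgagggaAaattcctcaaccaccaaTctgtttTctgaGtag
Taar8a: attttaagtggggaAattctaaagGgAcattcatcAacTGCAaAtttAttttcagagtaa
Taar8b: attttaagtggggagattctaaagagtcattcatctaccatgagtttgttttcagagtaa
Taar8c: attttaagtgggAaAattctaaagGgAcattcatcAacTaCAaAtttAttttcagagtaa

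Taar7a and Taar7b each differed from Taar7d at 3 of these 60 bases, Taar7e at 5 and Taar7f at 7, while Taar8a and Taar8c each differed from Taar8b at 10. Over the whole models, 12.6% to 36.9% of the 90-base windows of the Taar7 genes and 29.2% to 56.2% of those of the Taar8 genes occurred unchanged in another gene, and 0% of the windows of Taar1, Taar2, Taar3, Taar4, Taar5, Taar6 and Taar9 did. Reads that fit several genes are not counted by Cell Ranger, so counts of the Taar7 and Taar8 genes can be too low, to a degree that can differ by copy. How far they are was not examined, so levels of single copies are uncertain.

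Of the 10 listed genes, 9 were detected in mature OSNs and Taar5 had 0 UMIs in every cell of every type. Taar1 and Taar7c-ps also had 0 UMIs. The mature OSNs held 715 Taar UMIs, and 605 of them (84.6%) came from the genes without close copies, Taar2, Taar3, Taar4, Taar6 and Taar9. Levels are given here as UMIs per 1000000 UMIs of the mature OSNs of a mouse, and they were not divided by length because 3′ counting counts molecules and the models span a narrow range of lengths.

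Taar2 had the highest mean over the mice, with 8.32, 1.47, 5.25 and 1.69 UMIs per 1000000 in mice 1 to 4, and was the highest member in mouse 1 alone. Taar4 reached 3.92, 1.13, 6.05 and 0.368, and Taar6 reached 1.66, 2.95, 1.51 and 1.77. The first 2 of these receptors were higher in mice 1 and 3 than in mice 2 and 4, whereas Taar6 was the steadiest, with a mean of 1.97 ± 0.658 (SD, n = 4). Taar9 followed with 2.44, 0.0867, 1.04 and 0.737 UMIs per 1000000. Taar7d gave 0.892, 1.39, 0.239 and 0.368, and Taar3 gave 0.892, 1.04, 0 and 0.147. All 3 of these genes had a mouse with 3 or fewer UMIs, and Taar3 had 0 UMIs in mouse 3. The remaining detected genes were Taar7f with 23 UMIs, Taar8b with 21, Taar7b with 12, Taar7e with 8, Taar7a and Taar8a with 3 each, and Taar8c with 1. Ordered by mean level over the mice, each gene overlapped with the next in all 12 pairs of neighbours, so the order of neighbours is not resolved by 4 mice. Genes further apart in the order could be separate, and every value of Taar6 lay above every value of Taar7d, Taar3 and Taar7f.

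Counted by neuron, a Taar gene was the highest receptor of 80 mature OSNs. Taar4 was the highest receptor in 15 neurons, Taar2 in 12, Taar9 and Taar7f in 9 each, Taar7d in 8, Taar6 in 7, Taar8b in 6, Taar7e in 5, Taar3 in 4, Taar7b in 3, and Taar7a and Taar8a in 1 each. Taar8c was never the highest receptor. The authors gave an identity only to neurons whose highest receptor lay above a limit. Recomputed from the counts as the median of all highest receptors less 3 median absolute deviations on a log scale, the limit was 8.28 UMIs per 10000 UMIs of the cell and the median was 77.0.

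The call kept 44 of the 80 neurons and left 36 without an identity. All 12 Taar2 neurons and all 7 Taar6 neurons were kept, with 12 to 33 UMIs of Taar2 and 10 to 21 UMIs of Taar6 per neuron. Taar4 kept 13 of 15, Taar9 kept 5 of 9, Taar3 kept 3 of 4, Taar7d kept 3 of 8 and Taar7b kept 1 of 3. None of the 9 Taar7f, 6 Taar8b, 5 Taar7e, 1 Taar7a and 1 Taar8a neurons were kept. Split by copies, 29 of the 33 neurons of the Taar7 and Taar8 genes (87.9%) fell below the limit, against 7 of the 47 neurons of the other genes (14.9%). The median was 3 UMIs of the receptor per neuron in the first set and 12 in the second. The low values thus fell together with the genes that share sequence with a copy, and the part of lost reads in this was not tested. The members nearest the limit were a Taar4 neuron at 8.72 UMIs per 10000 above it and a Taar7d neuron at 8.07 below it.

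**Figure D1:**
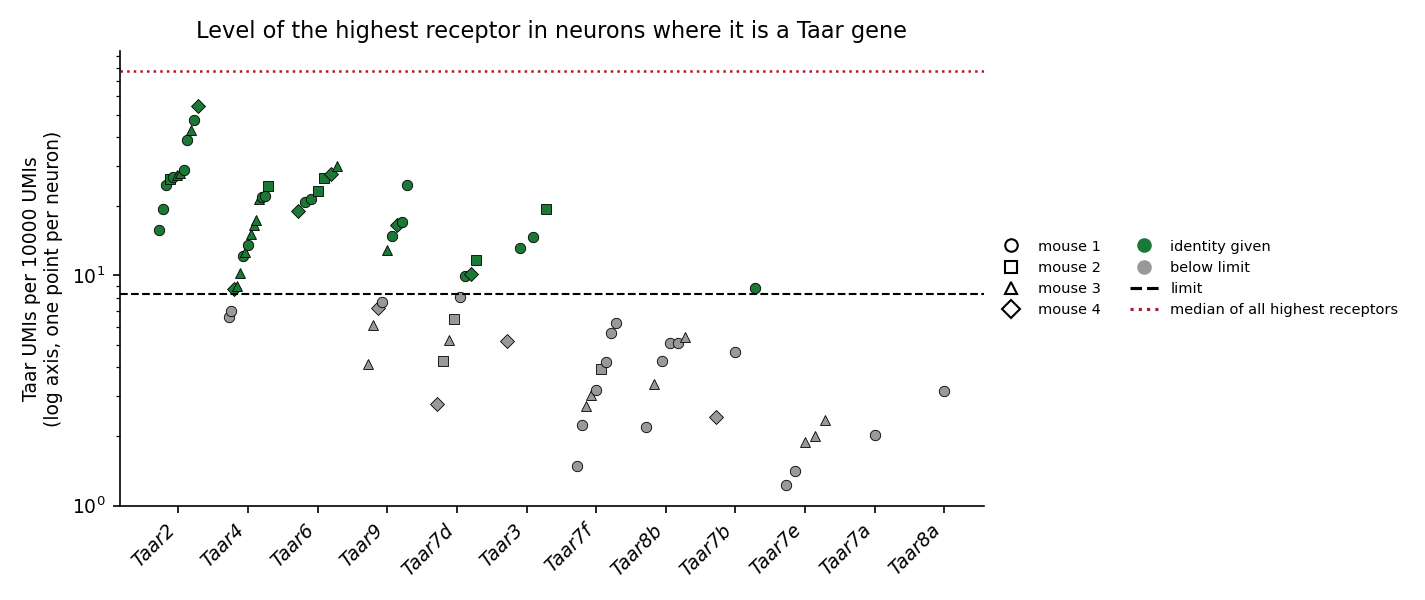
Level of the highest receptor in each of the 80 mature OSNs where it was a Taar gene, in UMIs per 10000 on a log axis, by gene in order of mean level over the mice. Symbols give the mouse and colour gives the receptor call. All points lie under the dotted line at 77.0, the median of all highest receptors, and all Taar7f, Taar8b, Taar7e, Taar7a and Taar8a points lie under the dashed limit at 8.28.

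Neurons with a Taar gene fell below the limit far more often than neurons with another receptor. Among neurons with a Taar gene as the highest receptor the share below it was 48.7%, 33.3%, 45.5% and 40% in mice 1 to 4 (41.9% ± 6.74, SD, n = 4). Among neurons with another highest receptor it was 1.37%, 1.39%, 2.18% and 1.84% (1.70% ± 0.391). The share was higher in 4 of 4 mice and the groups did not overlap. An exact two-sided permutation test over the 4 mice gave p = 0.125, which is the smallest p that 4 pairs allow, so this design cannot go below 0.05. Of the 229 neurons below the limit, 36 had a Taar gene as the highest receptor (15.7%), 165 had another receptor and 28 had a tie for the highest. The 4 mice differed in this share, which was 30.2%, 7.14%, 18.2% and 5.80% in mice 1 to 4, and without mouse 1 it was 17 of 166 (10.2%). Of the 36, 29 had no UMI of any other receptor family. The OR Olfr1344 had 11 of 11 neurons below the limit and Taar7f 9 of 9. Of 705 ORs that were the highest receptor of at least 4 neurons, 6 had 50% or more of them below the limit, against 4 of 9 Taar genes.

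The receptor was also counted at a lower level within the neurons that passed. Across TAAR neurons the median receptor level was 20.1, 23.9, 17.0 and 17.8 UMIs per 10000 in mice 1 to 4, and across OR neurons it was 79.7, 82.3, 79.0 and 79.7. Every TAAR value lay below every OR value, with means of 19.7 ± 3.08 and 80.2 ± 1.45 and a difference of −60.5 ± 1.75 (SD, n = 4, exact permutation p = 0.125). As raw counts the medians were 13, 12.5, 14.5 and 8.5 UMIs in TAAR neurons and 42, 33, 49 and 31 in OR neurons. Total UMIs per neuron are given beside the receptor counts, and their part in these counts was not tested. Median total UMIs per neuron were 7046, 6343, 6809 and 4658 in TAAR neurons and 5570, 4334, 6566 and 3972 in OR neurons, higher in 4 of 4 mice. Taar2 neurons had medians of 26.8, 26.2, 27.9 and 54.4 UMIs per 10000, the second and the last from 1 neuron each, again lower than OR neurons in 4 of 4 mice.

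**Figure D2:**
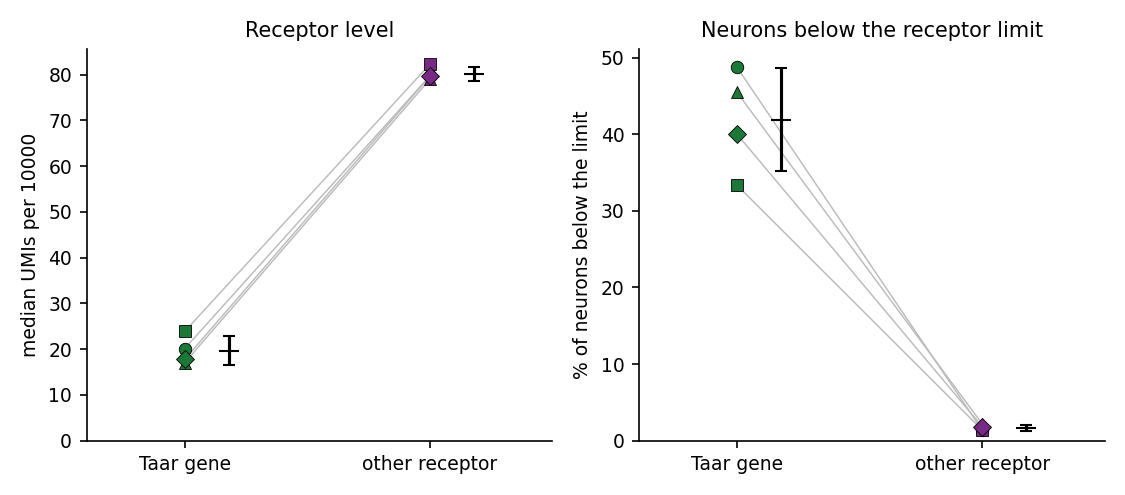
Median receptor level of neurons with an identity (left, UMIs per 10000) and percent of neurons whose highest receptor lies below the limit (right), for Taar genes and for other receptors. Each symbol is 1 mouse (circle, square, triangle and diamond for mice 1 to 4), lines join values of a mouse, and bars give the mean and SD over 4 mice. The groups do not overlap in either panel.

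Taar UMIs were counted by cell type. Mature OSNs held 0.125 ± 0.0702 Taar UMIs per 10000 (SD, n = 4), with a Taar UMI in 87 of 10519 cells (0.827%, exact interval 0.663% to 1.02%). The level was 0.114 ± 0.0796 in the later immature OSNs (iOSN2) and 0.0784 ± 0.0846 in the earlier ones (iOSN1), with 8 of 1006 and 7 of 866 cells positive. The 3 stages overlapped within the variation between mice. Among 284 immediate neuronal precursors 1 cell had 1 Taar9 UMI. Globose basal cells (202), both groups of horizontal basal cells (210 and 544), sustentacular cells (336) and the first group of microvillar cells (124) had 0 Taar UMIs. These zeros allow shares of up to 1.49%, 1.43%, 0.551%, 0.893% and 2.42% of cells with a UMI, from 3 counts of the total and covering counting error only. Apart from that of the second group of horizontal basal cells, these limits lie above the share in mature OSNs, so with these numbers of cells the zeros leave room for a share like that of mature OSNs in the other types. The second group of microvillar cells had 2 Taar2 UMIs in 2 of 1768 cells (0.113%). In the same 1768 cells, 26.4% carried a UMI of another receptor family, at a median depth of 5081 UMIs per cell against 4861 in mature OSNs. The 5950 barcodes that the authors removed held 8 Taar UMIs in 5 barcodes, 4 of them in 1 barcode of a cluster with a high mitochondrial share.

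Immature neurons also carried Taar genes, at up to 23 UMIs per cell. In iOSN2 cells, 8 of 8 positive cells had a Taar gene as the highest receptor and 6 had no UMI of another receptor family. The highest counts there were 23 Taar2 UMIs in mouse 1, 22 Taar6 UMIs in mouse 2 and 21 Taar4 UMIs in mouse 4. In iOSN1 cells 4 of 7 had a Taar gene on top. The other 3 carried an OR at a higher count: 1 Taar4 UMI beside 30 of Olfr1178, 6 Taar7b UMIs beside 16 of Olfr1351, and 4 Taar7d UMIs beside 131 of Olfr1406. Whether these 3 are single cells or droplets with more than 1 cell was not tested.

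The Taar genes made up a small part of the receptor populations of each mouse. TAAR neurons were 20 of 2690 neurons with an identity in mouse 1 (0.743%, 95% Wilson interval 0.482% to 1.15%), 6 of 2342 in mouse 2 (0.256%, 0.117% to 0.558%), 12 of 1759 in mouse 3 (0.682%, 0.391% to 1.19%) and 6 of 3000 in mouse 4 (0.200%, 0.0917% to 0.436%). The mean share was 0.470% ± 0.282 (SD, n = 4), with mice 1 and 3 above mice 2 and 4. Counted as populations, that is receptors with at least 1 neuron, Taar genes were 7 of 777, 5 of 683, 4 of 641 and 5 of 791, or 7 of 960 (0.729%) over all mice. The 7 populations were Taar4 with 13 neurons, Taar2 with 12, Taar6 with 7, Taar9 with 5, Taar3 and Taar7d with 3 each and Taar7b with 1. Among 952 OR populations, whose median size was 7 neurons, 233 were larger than the Taar4 population and 561 were larger than the Taar9 population. Taar5, Taar7a and Taar8c formed no population. Without the limit, and with every neuron assigned to its highest receptor, the share was 0.810% ± 0.549.

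Co-detection within the family was rare. Of 87 mature OSNs with a Taar UMI, 2 carried a second Taar gene (2.30%, exact interval 0.280% to 8.06%). These were a neuron with 8 UMIs of Taar3 and 1 of Taar4, and a neuron with 14 UMIs of Taar9 and 1 of Taar8c. In each pair the genes are neighbours on the chromosome. Both neurons were in mouse 1, and the share was 0% without that mouse. With at least 2 UMIs required of each gene, 0 of 68 neurons had a pair (exact upper bound 5.28%). The near-identical Taar7 copies were never counted together in 1 mature neuron.

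Co-detection with ORs was limited to single UMIs in nearly all neurons. Of the 80 neurons with a Taar gene on top, 22 (27.5%, exact interval 18.1% to 38.6%) had a UMI of another receptor family, in 25.6%, 33.3%, 36.4% and 10.0% of neurons by mouse. Of the 26 pairs of a neuron and another receptor, 25 rested on 1 UMI and the highest count was 2. In the other direction, 2 of 9741 OR neurons carried a Taar UMI (0.0205%) and 1 of 344 neurons with several receptors above the limit did. After thinning each neuron to 3000 UMIs, 10.0%, 16.7%, 16.7% and 0% of TAAR neurons and 17.6%, 21.5%, 24.1% and 18.1% of OR neurons had a second receptor. The difference of −9.47 percentage points (exact permutation p = 0.125) is not stable: it was 2.56 points when thinned to 2000 UMIs and 2.22 points without thinning. Thinning to 3000 left out 1 of 44 TAAR neurons and 1477 OR neurons.

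The authors clustered OSNs of populations with at least 3 neurons after removing receptor genes from the counts, and named clusters as dorsal or ventral from the side of the epithelium that their marker genes mark. The 43 clustered TAAR neurons fell into 3 of 10 clusters, 19 in the Dlg2+ dorsal cluster, 14 in the Dorsal cluster and 10 in the Ventral cluster. Dlg2 encodes a scaffold protein of synapses. The Dlg2+ dorsal cluster held 44.2% of TAAR neurons and 4.38% of the other neurons, and 4.37% of its 435 neurons were TAAR neurons (95% Wilson interval 2.81% to 6.72%). None of the 6 clusters marked by Calb2, Cd36 or Cd55 held a TAAR neuron, and neither did the Dlg2+ ventral cluster with 797 neurons.

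The cluster differed by Taar gene. Taar4 neurons were in the Dlg2+ dorsal cluster in 12 of 13 cases, in all 4 mice, whereas Taar2 neurons were in the Dorsal cluster in 10 of 12 cases, also in all 4 mice. Taar9 had 4 of 5 neurons and Taar3 2 of 3 in the Dlg2+ dorsal cluster. Taar6 had 6 of 7 neurons in the Ventral cluster, at least 1 in each mouse. Taar7d had 2 Ventral neurons, in mice 1 and 4, and 1 Dorsal neuron, in mouse 2. These are counts of few neurons and differences between single Taar genes were not tested. When receptor genes were kept in the clustering, 39 of 43 neurons stayed in the same cluster.

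**Figure D3:**
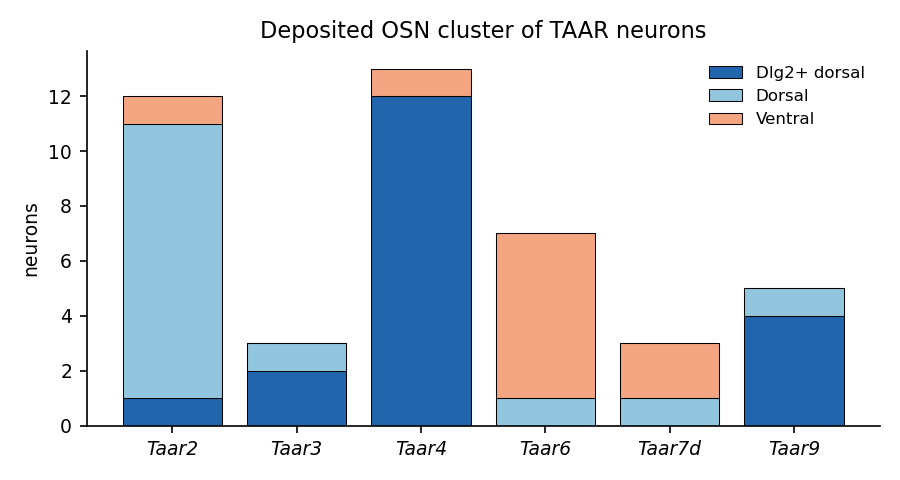
Number of TAAR neurons in each deposited OSN cluster, by Taar gene, for the 6 genes with at least 3 neurons. Taar4, Taar9 and Taar3 are mostly in the Dlg2+ dorsal cluster, Taar2 in the Dorsal cluster and Taar6 in the Ventral cluster.

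Summed over genes, 89.5%, 66.7%, 75.0% and 50% of TAAR neurons were in dorsal clusters in mice 1 to 4, against 30.9%, 26.3%, 32.1% and 25.8% of OR neurons. The share was higher in 4 of 4 mice and the groups did not overlap, with a difference of 41.5 ± 14.1 percentage points (SD, n = 4, exact permutation p = 0.125). This holds for the cluster and not for the classical marker pair. Counting neurons with more UMIs of the dorsal marker Nqo1 than of the ventral marker Nfix, the shares were 31.6%, 33.3%, 58.3% and 0% in TAAR neurons and 33.9%, 28.9%, 36.3% and 27.0% in OR neurons, a difference of −0.695 percentage points. The exact permutation test gave p = 0.875 for this difference. Of the clustered TAAR neurons 44.2% had no UMI of either marker, and in both groups such neurons count as not dorsal here. Of all 44 TAAR neurons, 15 had more Nqo1 than Nfix, 9 had more Nfix and 20 had no UMI of either.

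The marker genes separated the members into 3 patterns, described over all 80 neurons with a Taar gene on top. Nqo1 encodes a quinone reductase restricted to dorsal neurons, Acsm4 an acyl-CoA synthetase of dorsal neurons, Nfix a transcription factor of ventral neurons and Ncam2 an adhesion molecule of ventral axons. In the 40 neurons with Taar2, Taar3, Taar4 or Taar9, Acsm4 stood at 6.04 UMIs per 10000 and was present in 38, whereas Nqo1 stood at 1.57 and was present in 16. For comparison, class I OR neurons held 25.5 UMIs per 10000 of Nqo1 and 5.08 of Acsm4. Nfix was present in 1 of the 40 neurons. Taar6 neurons were the reverse, with Nfix in 7 of 7 at 5.30 UMIs per 10000, Nqo1 in 0 of 7 and Acsm4 in 1 of 7.

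The Taar7 genes were mixed. Of the 9 Taar7f neurons 7 had more Nqo1 than Nfix and 1 the reverse, with Nqo1 at 11.7 UMIs per 10000. Of the 8 Taar7d neurons 5 had more Nqo1 and 2 more Nfix. Nfix exceeded Nqo1 in 3 of 5 Taar7e neurons and in 2 of 3 Taar7b neurons. Of the 6 Taar8b neurons 4 had more Nqo1 and 1 more Nfix, and the Taar8a neuron had 4 UMIs of Nqo1 and 0 of Nfix. Acsm4 was found in 6 of the 6 Taar8b neurons and in the Taar8a neuron. Nqo1 was therefore present in members of the family, at pooled levels of 12.1 in Taar7d and 11.7 in Taar7f neurons, while it was 0.753 in Taar2, 2.36 in Taar4 and 0 in Taar3 and Taar6 neurons. These are sums over few neurons from unequal numbers of mice, so they carry no error over mice. Calb2, otherwise a marker of other OSN clusters, had 70 UMIs in the neurons of the Taar7 and Taar8 genes, of which the Taar8b neurons held 56 and the Taar7a neuron 9.

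**Figure D4:**
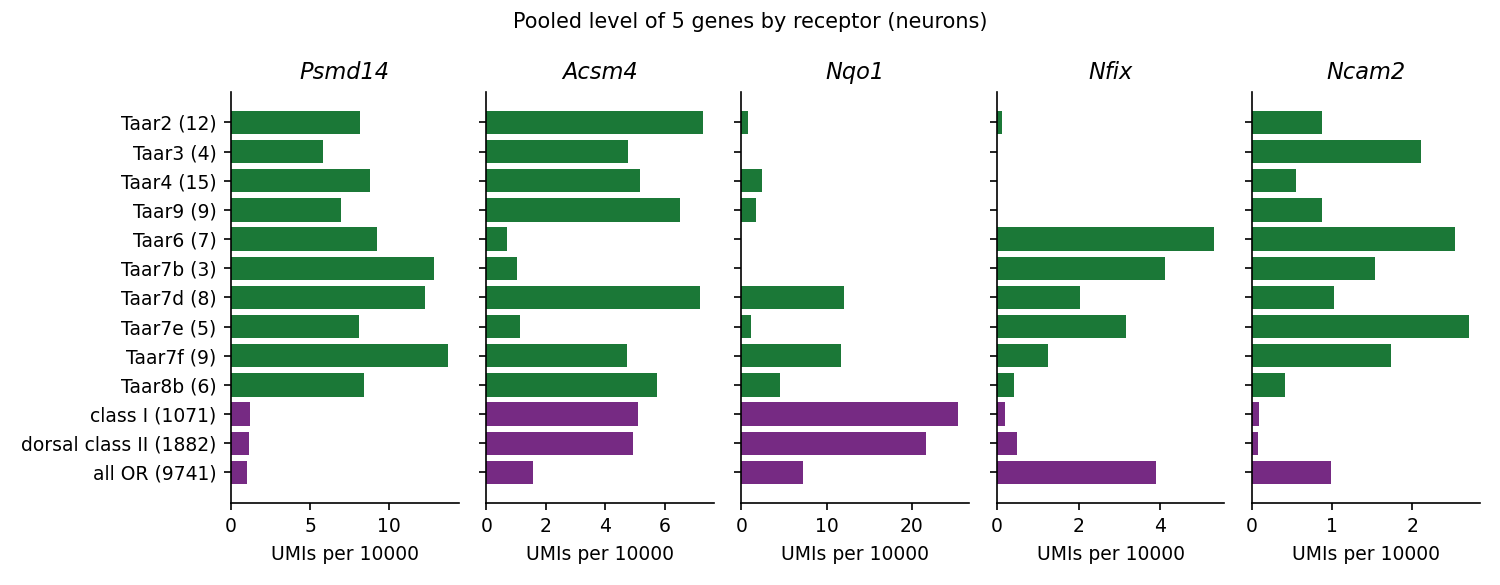
Pooled level of 5 genes, in UMIs per 10000, in neurons grouped by their highest receptor, with the number of neurons in parentheses. Green bars are Taar genes with at least 3 neurons, at any receptor level, and purple bars are OR neurons. Psmd14 is higher in every Taar group than in the OR groups, and Nqo1 is at 0 to 2.36 in Taar2, Taar3, Taar4, Taar9 and Taar6, below the 7.23 of OR neurons.

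Genes other than receptors were compared between TAAR neurons and all OR neurons on UMI sums per mouse, with 11330 genes tested. In TAAR neurons 30 genes were higher (0.265% of those tested) and 81 were lower (0.715%) by edgeR's quasi-likelihood test with Benjamini-Hochberg adjustment. The median log2 difference of all genes tested was −0.24, so single differences are read against that. DESeq2 called 20 higher and 8 lower. The 44 TAAR neurons summed to far fewer UMIs than the OR neurons, with 27479 to 139304 per mouse. Leaving out mouse 1, which held 20 of them, left 51 calls, and leaving out mouse 3 left 45.

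Psmd14 had the largest increase by fold among genes higher in all 4 mice, closely followed by Zfp764 (log2 2.87). Zfp764 was ahead by DESeq2 (3.08 against 3.00) and without mouse 3 (3.28 against 2.78 by edgeR), and Psmd14 in the other settings. Psmd14 encodes a deubiquitinase of the proteasome's regulatory particle, which removes ubiquitin from proteins about to be degraded. Its level in TAAR neurons was 9.55, 5.93, 8.74 and 8.01 UMIs per 10000, against 1.11, 1.01, 0.983 and 0.983 in OR neurons. Every TAAR value was above every OR value. The log2 difference was 2.88 (SE 0.152, adjusted p = 2.86e-75 by edgeR).

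Acsm4, with 158 UMIs in TAAR neurons, stood at 5.31, 6.70, 5.83 and 2.18 UMIs per 10000 in TAAR neurons and at 1.56 ± 0.300 (SD, n = 4) in OR neurons (log2 difference 1.55, SE 0.166, adjusted p = 3.11e-17 by edgeR). Mef2b, a MADS-box transcription factor, was at 3.88 ± 1.29 against 1.38 ± 0.172 (log2 1.16, adjusted p = 1.26e-06). Acss2, which makes acetyl-CoA from acetate, was at 2.32 ± 0.955 against 0.997 ± 0.0768 (log2 1.10, adjusted p = 0.000360), and its relative Acss3 at 0.468 ± 0.0876 against 0.101 ± 0.0101 (log2 2.07, adjusted p = 0.0240). Also among the largest increases were Zfp764, Smarcd2, Socs2 and 2810001G20Rik, with log2 differences from 1.04 to 2.87. Of these, Zfp764 rested on 7 UMIs in TAAR neurons. The call was lost in 7 of the other settings for Zfp764, in 6 for Smarcd2, in 5 each for Socs2 and Acss3, in 2 each for Acss2 and 2810001G20Rik and in 1 for Mef2b, while those of Psmd14 and Acsm4 were lost in 0. None of these genes overlapped between the groups. They were named among genes higher in all 4 mice, which favours a lack of overlap, so it is not a separate result.

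The genes that were lower included the markers of whole OSN clusters. Calb2, the calcium-binding protein calretinin, had 1 UMI in all TAAR neurons against 3.61 ± 0.376 UMIs per 10000 in OR neurons (log2 −6.89, SE 0.522, adjusted p = 6.33e-36 by edgeR). Cd55, a complement inhibitor of the cell surface, had 2 UMIs against 2.09 ± 0.240 per 10000 (log2 −5.05, adjusted p = 7.65e-19). Cd36, a fatty acid transporter, had 0 UMIs and was at least 7.19-fold lower, taking 3 counts over all TAAR neurons as the floor. Olig2, Mboat1, Kbtbd11, Heca and Pcdh11x also had 0 UMIs in TAAR neurons, at least 2.53-fold to 4.02-fold lower. These 5 genes and Cd36 passed the filter through the OR neurons alone, so a call could only be downward. The calls of the 5 were lost in 3 (Olig2), 4 (Mboat1), 7 (Kbtbd11), 8 (Heca) and 7 (Pcdh11x) of the other settings, with adjusted p of 0.156 for Olig2 and 0.743 for Pcdh11x by DESeq2. Gm31557 and the transcription factor Olig1 had 1 and 2 UMIs. Dlg2, the fourth cluster marker, was at 2.15, 3.87, 3.70 and 0.728 UMIs per 10000 in TAAR neurons, overlapping with 4.23 ± 0.368 in OR neurons, with a log2 difference of −0.77 (adjusted p = 0.00471 by edgeR). By edgeR all 4 cluster markers were called lower, beside 0.715% of all genes, and by DESeq2 3 of 4, beside 8 of 11330. For Cd36 the direction was fixed, and Calb2 and Cd55 also passed the filter through the OR neurons, so no conclusion is drawn from this count. In mouse 2 Dlg2 was higher in TAAR neurons (3.87 against 3.69). Dlg2 did not pass against dorsal class II neurons (log2 −0.0031, adjusted p = 1.00) or class I neurons (log2 −0.51, adjusted p = 0.170 by edgeR). Clusters were made from the same cells, and the absence of TAAR neurons from the Calb2, Cd36 and Cd55 clusters and these values are not separate observations.

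Of 17 genes that carry the odour signal 1 fell, beside 0.715% of all genes tested, and 4 had an unadjusted p below 0.05, beside 1017 of 11330 genes. The list median was −0.16 beside −0.24 for all genes, and DESeq2 called 1 of the 17. The gene that fell was Stoml3, a membrane scaffold protein of the cilia, at 49.7, 63.4, 39.9 and 73.2 UMIs per 10000 against 84.0 ± 3.95 (log2 −0.81, adjusted p = 3.57e-09 by edgeR). Every TAAR value was below the OR values. Omp was at 62.6 against 72.3 (adjusted p = 0.0612 by edgeR), lower in 4 of 4 mice without overlap. The G protein gene Gnal at 27.8 against 27.1, the cyclase gene Adcy3 at 9.81 against 11 and the channel gene Cnga2 at 7.39 against 7.27. The receptor transport genes Rtp1 (4.22 against 4.12) and Rtp2 (4.31 against 4.22) did not pass the test either.

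Other lists moved in a few members. Of 10 genes of axon sorting and activity 1 rose and 1 fell by edgeR, beside 0.265% and 0.715% of all genes, and DESeq2 called 1. S100a5, a calcium-binding protein whose level follows neuronal activity, was at 330, 236, 446 and 486 UMIs per 10000 against 237 ± 21.1 (log2 0.42, adjusted p = 0.0448), with mouse 2 within the range of OR neurons. By receptor, its pooled level was 567 UMIs per 10000 in Taar4, 581.9 in Taar9 and 470 in Taar3 neurons, and 141 in Taar2 and 194 in Taar6 neurons, which lie below the pooled 238 of OR neurons. S100a5 was higher than in dorsal class II neurons (log2 0.78, adjusted p = 2.88e-05 by edgeR), without overlap, and did not pass against class I neurons (log2 0.41, adjusted p = 0.146). Plxna1, a semaphorin co-receptor of axons, was at 0.144, 0, 0.672 and 0 against 1.40 ± 0.273 (log2 −2.39, adjusted p = 2.96e-06 by edgeR). It had 8 UMIs in TAAR neurons and passed the filter through the OR neurons. Of 10 tested regulators of receptor choice 2 fell, Ebf1 (8.96 ± 0.605 against 12.4 ± 0.0595, log2 −0.64, adjusted p = 0.000662) and Bcl11b (0.247 ± 0.234 against 0.936 ± 0.168, log2 −1.84, adjusted p = 0.00594), a zinc-finger factor that takes part in the choice between OR classes. DESeq2 called 0 of these 10. Lhx2, Emx2, Atf5 and Kdm1a did not pass. Of the 10 genes of non-canonical olfactory neurons 2 could be tested, and Tshz1 fell (0.221 ± 0.218 against 1.32 ± 0.252, log2 −2.71, adjusted p = 9.41e-07 by edgeR), beside 0.715% of all genes. DESeq2 called 0 of the list. Tshz1 had 6 UMIs in TAAR neurons and also passed the filter through the OR neurons. Of 5 genes of immature neurons 0 were called by edgeR and 0 by DESeq2, and 1 had an unadjusted p below 0.05. On the dorsal list Acsm4 rose, Nqo1 fell (2.25 ± 2.5 against 7.28 ± 1.47, log2 −2.08, overlapping through mouse 2) and Robo2 did not pass (1.41 against 1.22). DESeq2 called 1 of these 3. On the ventral list Nfix (log2 −1.97) and Nfib (log2 −2.93) fell by edgeR, and DESeq2 called 1 of the 5. Nfib had 5 UMIs in TAAR neurons and passed the filter through the OR neurons. Nfia, Ncam2 and Nrp2 did not pass, among them Ncam2 at 1.51 against 0.998.

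Narrower comparisons took OR neurons of the dorsal side. The first used 1882 neurons of 191 class II OR populations whose most frequent cluster was dorsal, with 8058 genes tested. TAAR neurons had 30 genes higher (0.372%) and 47 lower (0.583%), by edgeR, against 14 and 7 by DESeq2. Without mouse 1, 2 or 3 the total of 77 fell to 34, 46 or 23. The second used 1071 neurons with class I ORs, the family encoded by a single gene cluster on chromosome 7, with 6664 genes tested. Here 40 genes were higher (0.600%) and 60 lower (0.900%), against 22 and 18 by DESeq2, and the total of 100 fell to 44 without mouse 1 and 53 without mouse 3. All 3 comparisons use the same TAAR neurons, and values are set side by side for that reason.

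Nqo1 was lower in TAAR neurons with an identity than in both dorsal groups. It was at 0.861, 5.67, 2.47 and 0 UMIs per 10000 in TAAR neurons, at 23.3, 31.7, 26.5 and 21.5 in class I neurons and at 19.4, 25.4, 24.1 and 18.8 in dorsal class II neurons. Every TAAR value was below every dorsal OR value. The log2 difference was −3.73 (SE 0.179, adjusted p = 9.99e-92 by edgeR) from class I and −3.52 (SE 0.186, adjusted p = 4.28e-76) from dorsal class II neurons. Ncam2 went the other way, at 1.01, 2.06, 0.784 and 2.18 UMIs per 10000 against 0.0989 ± 0.0472 in class I (log2 3.82, adjusted p = 4.19e-17) and 0.0790 ± 0.0294 in dorsal class II neurons (log2 3.94, adjusted p = 3.25e-17). Class II neurons were chosen through clusters that these genes helped to form, whereas class I neurons were chosen by gene position alone. The Nqo1 value of TAAR neurons in mouse 2 came mostly from 1 Taar7d neuron with 21 UMIs. Neurons below the limit with a Taar gene on top had more Nqo1, at 8.17, 8.96, 2.61 and 2.90 UMIs per 10000 in mice 1 to 4.

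With only TAAR neurons of dorsal clusters, the differences of Nqo1 and Ncam2 remained. These neurons held 55 Nqo1 UMIs, 21 of them in the same Taar7d neuron. Nqo1 differed by −3.37 from class I and −3.15 from dorsal class II neurons, and Ncam2 by 3.46 and 3.54. Adjusted p ranged from 1.04e-42 to 2.22e-08 over these 4 values by edgeR, and this restriction was chosen after seeing the data. Nrp2, an axon guidance receptor of ventral neurons, was higher than in dorsal class II neurons over all TAAR neurons (0.808 ± 0.345 against 0.175 ± 0.0376, log2 2.11, adjusted p = 0.00129) and not with the dorsal TAAR neurons alone (0.83, adjusted p = 0.871) or without mouse 3 (1.66, adjusted p = 0.472 by edgeR). Acsm4 did not differ from either dorsal group in the dorsal TAAR neurons (log2 0.34 and 0.32, adjusted p = 0.722 and 0.813 by edgeR).

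The comparisons with dorsal class II and class I neurons share the TAAR neurons with the one above, so their values are set side by side. Psmd14 was 2.86 higher on the log2 scale than in dorsal class II neurons and 2.75 higher than in class I neurons. Calb2 was −7.65 and −6.66, Cd55 −3.68 and −5.79. The size for Calb2 depends on the receptor limit. With every neuron that had a Taar gene on top, including the Taar8b and Taar7a neurons with Calb2, it was −2.40 against dorsal class II neurons and −1.58 against all OR neurons. Of the 4 cluster markers DESeq2 called 1 against dorsal class II neurons, where it called 7 of 8058 genes lower, and 3 against class I neurons, where it called 18 of 6664 lower. Cd36, with 0 UMIs in TAAR neurons, passed the filter through the OR neurons alone, so its direction was fixed. It was at least 3.66-fold lower than in dorsal class II neurons and at least 11.7-fold lower than in class I neurons. The first of these calls was lost without mouse 1 (adjusted p = 0.386), without mouse 3 (0.107), with exactly 1 receptor detected (0.185) and with dorsal TAAR neurons alone (0.0755), all by edgeR. The other genes with the largest changes were Zfp764, Mboat1, 4932412D23Rik and Frmd3 against dorsal class II neurons, and Gm42912, Nfix, Nppc, Col27a1, Mboat1 and Olig2 against class I neurons. Mboat1 against both groups, and Nppc, Col27a1 and Olig2 against class I neurons, had 0 UMIs in TAAR neurons and passed the filter through the OR neurons alone. Of the genes in this list, the calls of Gm42912 and Nfix kept their side of the threshold in the settings that gave a value for them, which did not include dorsal TAAR neurons alone, and the rest were lost in 2 to 5. With dorsal TAAR neurons alone Nfix had 2 UMIs and was at −2.41 against dorsal class II neurons (adjusted p = 0.300 by edgeR), where all TAAR neurons gave 1.11 (adjusted p = 0.0877). Nrp2 was also higher than in class I neurons (log2 2.40, adjusted p = 3.54e-05 by edgeR). Nfix was at 1.52 ± 1.06 against 0.211 ± 0.119 in class I neurons (log2 2.59, adjusted p = 8.80e-08), with the higher values in mice 2 and 4, where Taar6 neurons made up 4 of the 12 TAAR neurons. On the transduction list Ric8b, a chaperone of the olfactory G protein, was higher than in class I neurons (9.24 ± 2.40 against 5.96 ± 0.313, log2 0.51, adjusted p = 0.00928 by edgeR), 1 of 17 beside 0.600% of all genes, and DESeq2 called 0. Stoml3 was lower than in dorsal class II neurons (log2 −0.70, adjusted p = 2.36e-05 by edgeR) and did not pass against class I neurons (log2 −0.28, adjusted p = 0.438), where the groups overlapped. Of the receptor choice regulators 2 of 10 were lower than in dorsal class II neurons, beside 0.583% of all genes, and 1 of 10 than in class I neurons, beside 0.900%, with 0 called by DESeq2 in either. Bcl11b had the opposite direction against class I neurons and did not pass (0.247 against 0.161, log2 1.04). Of the immature neuron genes 0 of 4 and 1 of 3 were lower, the latter Tubb3 (log2 −0.76). At unadjusted p below 0.05 there were 1 of these 4, beside 637 of all 8058 genes, and 2 of these 3, beside 508 of all 6664 genes, and DESeq2 called 0 and 1.

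**Figure D5:**
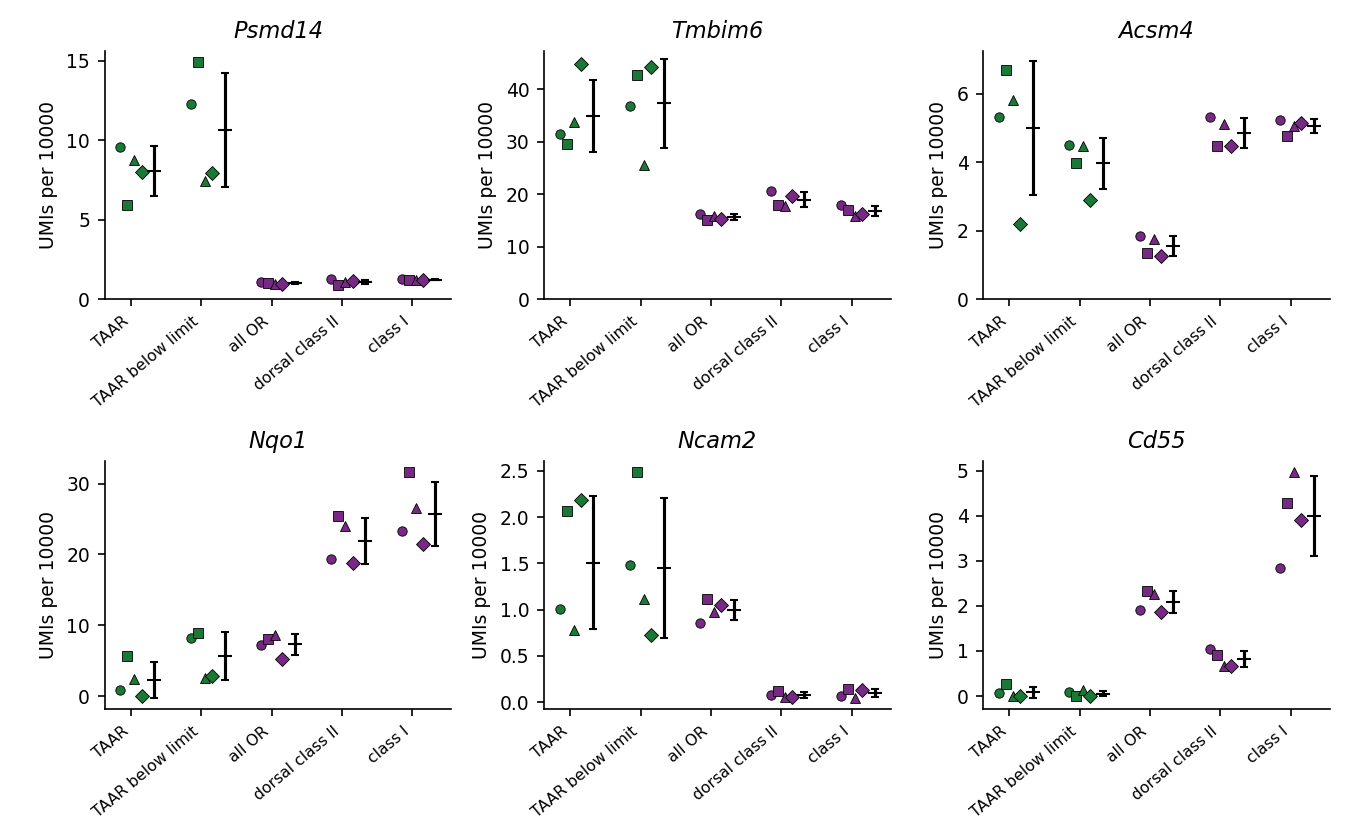
Level of 6 genes in UMIs per 10000 for TAAR neurons, neurons below the limit with a Taar gene on top, all OR neurons, dorsal class II and class I neurons. Each symbol is 1 mouse (circle, square, triangle and diamond for mice 1 to 4) and bars give the mean and SD over 4 mice. Psmd14 and Tmbim6 are higher in both TAAR groups than in every OR group, and Nqo1 is lower in TAAR neurons than in both dorsal OR groups.

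The 36 neurons below the limit had no receptor identity and were left out of the main comparisons above, although they come from the same mice and libraries. They were set against 165 neurons below the limit with another highest receptor, a choice made after seeing the data. Of 2441 genes tested 26 were higher (1.07%) and 27 lower (1.11%) by edgeR, while DESeq2 called 11 higher and 7 lower. Without mouse 1, 2 or 3 edgeR called 27, 29 and 34 genes in all, and without mouse 4 it called 58. Psmd14 was at 12.3, 14.9, 7.45 and 7.97 UMIs per 10000 against 1.08, 0.905, 0.930 and 1.54 (log2 3.23, SE 0.199, adjusted p = 9.14e-13). Acsm4 was at 3.97 ± 0.753 against 1.02 ± 0.498 (log2 1.84, adjusted p = 3.62e-05) and Mef2b at 2.80 ± 1.06 against 0.728 ± 0.332 (log2 1.72, adjusted p = 0.00127). Cd55 was at 0.0505 ± 0.0613 against 2.95 ± 0.364 (log2 −5.02, adjusted p = 5.98e-08 by edgeR). DESeq2 called each of these 4 genes. None of them overlapped between the groups, but they were named among genes changed the same way in 4 mice, which favours a lack of overlap.

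Of the 10 genes named as higher in TAAR neurons against all OR neurons, 6 could be tested below the limit. Of these, 4 were called higher (Psmd14, Acsm4, Mef2b and 2810001G20Rik), beside 1.07% of all genes tested. The list came from the same mice and libraries, so this count is not an independent result. The call of 2810001G20Rik was lost with DESeq2 (adjusted p = 0.426) and, by edgeR, with no filter on low counts (0.270) and without mouse 1 (0.822) or mouse 2 (0.112). Of the 10 named as lower, 4 could be tested and 3 were called lower (Cd55, Gm31557 and Olig1), beside 1.11% of all genes tested. Cd55 had 2 UMIs in the neurons with a Taar gene on top and 244 in the others. It passed the filter through the others, so no conclusion is drawn from this count. Calb2 was the exception. The neurons below the limit with a Taar gene on top held 70 Calb2 UMIs, 56 of them in Taar8b neurons and 9 in the Taar7a neuron. The part of these neurons in the missing call was not tested. The genes with the largest changes there were named after their values were seen. Tmbim6, an ion channel regulator of the endoplasmic reticulum that limits cell death, was at 36.8, 42.8, 25.6 and 44.2 UMIs per 10000 against 10.0 ± 0.825 (log2 1.79, adjusted p = 1.71e-09), and Pcdh17, a protocadherin, was at 4.15 ± 1.10 against 1.12 ± 0.129 (log2 1.81, adjusted p = 2.37e-05 by edgeR). Stoml3 was again lower (46.7 ± 7.52 against 74.0 ± 4.19, log2 −0.70), a call lost without mouse 1 (adjusted p = 0.112 by edgeR) or mouse 2 (0.103). With a Taar gene on top, Psmd14 and Acsm4 were higher and Cd55 lower on both sides of the limit. They were set against OR neurons above it and against neurons with another highest receptor below it. These genes were named for the same direction in 4 of 4 mice, so that direction is not a separate result.

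Psmd14 was also compared across single populations. It had been named for its increase in these same neurons, so its values by population are a description and not a separate result. The genes set beside it were also named from these data. Among the 4 Taar populations with at least 5 neurons it ranged from 8.15 to 9.32 UMIs per 10000. Among 623 OR populations of that size it ranged from 0 to 3.71, with a median of 0.966, so 0 of 623 reached the lowest Taar population. By the same count, 97 of 623 OR populations reached the lowest Taar population for Tmbim6, 242 for Acsm4 and 344 for Ncam2. The pooled level in neurons grouped by Taar gene ran from 5.80 in Taar3 to 13.7 in Taar7f, leaving aside the single Taar7a neuron. A Psmd14 UMI was found in 43 of 44 TAAR neurons and 33 of 36 neurons below the limit, against 32.7% to 45.4% of OR neurons by mouse, at median depths of 4658 to 7046 and 3972 to 6566 UMIs in TAAR and OR neurons. In immature OSNs it was at 4.64 UMIs per 10000 in the 12 cells with a Taar gene on top and at 1.2 in 1689 cells with another highest receptor.

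Markers of other cell types were summed per mouse in TAAR and OR neurons. The 3 globose basal, 3 horizontal basal and 4 immune markers were all at 0 UMIs in TAAR neurons and in the neurons below the limit with a Taar gene on top. In OR neurons their means were only 0.0119, 0.0177 and 0.0317 UMIs per 10000, so these zeros do not set the groups apart. The 4 sustentacular markers summed to 0 to 0.728 UMIs per 10000 by mouse (mean 0.34) against 0.176 to 0.216 (mean 0.193) in OR neurons, with Cyp1a2 and Ermn at 0, and the 3 microvillar markers to 0 to 0.258 (mean 0.0645) against 0.00854 to 0.0253 (mean 0.0163), with Ascl3 and Cftr at 0. The 3 haemoglobin genes summed to 0.0718 to 0.773 against 0.110 to 1.32, the 2 immature OSN markers to 0 to 0.773 (mean 0.293) against 0.158 to 0.242 (mean 0.197), and the 5 mature OSN markers to 210 to 240 against 260 to 267. The part of these levels in the gene differences was not tested. Across libraries, total UMIs ranged from 23157467 to 32382702 and 54 barcodes occurred in more than 1 library, 0 of them with a Taar UMI.

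The genes whose level over the 10 OSN clusters was most like that of the summed Taar genes were Gm45428 (Pearson r = 0.916), Fahd2a (0.903), Apoe (0.896), Psmd9 (0.877) and Snd1 (0.862), out of 10257 genes with at least 200 UMIs. The correlation is over 10 clusters that share libraries and rests on the Dlg2+ dorsal cluster, where the summed Taar level was 0.838 UMIs per 10000, and the Dorsal cluster, where it was 0.309. Taar genes were at 0 in 7 of the 10.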

How the data were processed

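Single cells of the main olfactory epithelium from 4 mice were analysed, 1 library per mouse. UMI counts per gene and cell were deposited by the authors, who made them with Cell Ranger 6.0.1 on GRCm38, with redrawn 3′ ends of olfactory receptor genes. Cell types, OSN clusters and receptor identities were taken from their cell table. No doublet caller was run here. The authors' receptor call set aside neurons with several receptors above its limit, and neurons with exactly 1 detected receptor served as an alternative.

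UMIs were summed per mouse and neuron group, receptor genes were left out, and groups were compared with edgeR 4.0.16 in R 4.3.3 (TMM, filterByExpr, quasi-likelihood test, mouse as a block, Benjamini-Hochberg adjusted p of 0.05). The mouse pairs the sums because both come from 1 animal. DESeq2 1.42.0 was an alternative. A gene low in the 44 TAAR neurons could pass the filter through the OR neurons alone. Tested on simulated data for TAAR against all OR neurons (11160 genes), the test recovered 42% of genes changed by 1 and 94% of those changed by 2 on the log2 scale. Changes were simulated only in genes with more than 3 expected UMIs in an average TAAR sum, with a fixed dispersion and no differences between mice. These shares therefore do not apply to genes with fewer UMIs. Single values were compared by exact two-sided sign-flip permutation tests over 4 mice (scipy 1.17.1). Totals were 23157467 to 32382702 UMIs per library. Intervals and floors (3 counts, over all TAAR neurons for folds) cover counting error only.

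Named were all Taar genes, the members of fixed gene lists, and, among genes called and changed the same way in 4 mice, the 10 largest in each direction against all OR neurons and the 5 largest in the other comparisons. An item that this rule names is not reported here. The Taar genes and all lists were chosen with earlier results of these data known. Gene models and sequences came from GENCODE M21. Other settings tried were no block, no filter on low counts, other thinning depths and leaving out each mouse.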

Additional observations from a re-analysis of the deposited data

Results flagged for a closer look

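In 3 of 40 groups of 4 mice examined, 1 mouse lay far from the other 3 by a ratio test for outliers. Its rate by chance, about 1 group in 20, assumes normally distributed values and does not hold for counts at 0 in 3 mice. All 3 were levels in TAAR neurons that rested on few UMIs. Calb2 was at 0.0718 UMIs per 10000 in mouse 1 and at 0 in the other mice, from a single UMI. Gm31557 was at 0.258 in mouse 2 and at 0 in the others, also from 1 UMI. Nfib was at 1.09 in mouse 4, 0.144 in mouse 1 and 0 in mice 2 and 3, from 5 UMIs in all.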

How the results depend on the processing

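The sign of 2 results changed with the setting. The dorsal share of TAAR neurons, 41.5 percentage points above OR neurons by cluster, was −0.695 points by the count of Nqo1 against Nfix (exact permutation p = 0.875). That count takes neurons with no UMI of either marker as not dorsal, which were 44.2% of the clustered TAAR neurons. The share with a further receptor, −9.47 points from OR neurons, was 2.56 points when thinned to 2000 UMIs and 2.22 points without thinning, and the cause was not tested. The TAAR share of neurons with an identity, 0.470%, was 0.810% with no limit on the receptor. It was 0.871% among mature OSNs with exactly 1 detected receptor, which were also counted with no limit.

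Counts of genes were 111 against all OR neurons, 77 against dorsal class II and 100 against class I neurons. DESeq2 gave 28, 21 and 40. Leaving out 1 mouse at a time gave 45 to 93, 23 to 67 and 44 to 82. With exactly 1 receptor detected, the dorsal class II and class I counts were 47 and 57. Settings chosen after seeing the data gave 204, 159 and 174 with every neuron that had a Taar gene on top, and 38 and 58 with TAAR neurons of dorsal clusters alone. Without the replicate block, which pairs sums of the same animal, the counts were 132, 76 and 91. Below the receptor limit, a comparison chosen with its alternatives after seeing the data, 53 genes were called, 18 by DESeq2, 27 to 58 leaving out 1 mouse at a time and 58 without the block. The causes of these changes were not tested. Settings that leave out mice or neurons also hold fewer neurons. Of the values for named genes with a UMI in TAAR neurons, 253 kept their direction and side of the threshold and 61 kept their direction and no longer passed. For genes with 0 UMIs there the direction was fixed by the filter, and 53 of their 122 values no longer passed. Depth limits the genes at 0 or a few UMIs in the 44 TAAR neurons.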
